A study of Mus musculus with 20 samples.

Results

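The tissue inhibitors of metalloproteinases were read from 7 probes of 5 genes, Timp1, Timp2, Timp3, Timp4 and Reck, out of 34797 distinct gene names and 55681 noncontrol probes on the array. The members were every noncontrol probe whose gene name in the scanner output was among these 5. The family was chosen by these same log2 signals over the 5 groups, in which Timp1 and Timp4 were known to differ, so the differences of its members between groups are described here without a test. All 7 probes were well above background on all 20 arrays. Timp2 and Reck had 2 probes each, and the probes of a gene share its transcript and are not replicates.

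The arrays measured RNA of whole frozen diaphragm, the muscle that borders the pleural cavity, from 20 female C57Bl/6 mice that were 8 weeks old when a single volume of 100 μL was injected into that cavity. Control mice received only the carrier, 0.5% BSA/saline, which all fiber groups received too. SFA mice received shortened amosite asbestos and LFA mice amosite enriched for long fibers, both at 25 μg per mouse. NTS mice received short and NTL mice long carbon nanotubes, both at 5 μg per mouse, so that asbestos and nanotubes were not given at the same dose. Tissue was taken at 12 weeks with 4 mice in each group, and the question of the design was how fiber length and material changed transcription along the pleura. A signal below is the log2 intensity of a probe minus the 75th percentile of the array's log2 intensities. A probe was called when its difference in limma's fit reached 1 on the log2 scale, which is 2-fold, and its p, adjusted by Benjamini-Hochberg over the 36931 probes tested, was under 0.05. The labels number the mice but name no litters or cages, so errors measure the spread between these animals. In whole tissue, fewer cells of a type and less RNA per cell cannot be told apart.

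TIMPs are small secreted proteins that block the active site of matrix metalloproteinases, the zinc enzymes that cut collagen and other matrix proteins. TIMP1 is strongly inducible in inflamed and wounded tissue, TIMP2 is produced widely and also takes part in activating pro-MMP2 at the cell surface, TIMP3 binds the matrix and additionally inhibits ADAM and ADAMTS enzymes, and TIMP4 is best known from heart, skeletal muscle and fat. RECK is a membrane-anchored glycoprotein that restrains several of the same enzymes.

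The 2 genes with the widest differences between groups, Timp1 and Timp4, are shown by the 250 bases upstream of their RefSeq transcription start (GRCm38.p6). The Timp1 stretch lies at chrX:20869916-20870165 on the plus strand and the Timp4 stretch at chr6:115252206-115252455 on the minus strand, and each is written 5′ to 3′ in the direction of its gene.
Timp1 upstream region: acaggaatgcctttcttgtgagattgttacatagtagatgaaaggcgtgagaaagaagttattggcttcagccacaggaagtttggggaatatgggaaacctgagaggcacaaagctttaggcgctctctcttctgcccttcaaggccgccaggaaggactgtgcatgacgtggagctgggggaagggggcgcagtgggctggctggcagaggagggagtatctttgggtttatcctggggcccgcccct
Timp4 upstream region: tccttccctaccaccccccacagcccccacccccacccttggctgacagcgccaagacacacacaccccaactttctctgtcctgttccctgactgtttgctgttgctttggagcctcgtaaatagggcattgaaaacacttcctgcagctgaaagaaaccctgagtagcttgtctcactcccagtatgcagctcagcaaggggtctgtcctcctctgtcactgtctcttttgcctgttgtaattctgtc
All 5 genes had an entry in the promoter table. Both strands of the 5 upstream stretches were searched for TGANTCA (AP-1), TTCNNNGAA (STAT) and CTA followed, 4 bases on, by TAG (MEF2, a muscle factor). None of the 3 patterns was found in any of the 5, so no base is capitalized and no matches overlapped. Of 32851 such stretches in the table, 6.75% held the AP-1 pattern, 7.02% the STAT pattern and 3.2% the MEF2 pattern. The absence of a match says only that these letters are not in this window. GC content of the stretch was 54.4% for Timp1 and 53.6% for Timp4, against 68.0% for Timp2, 65.6% for Timp3 and 68.4% for Reck.

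The probes are 60 bases long, and their positions are those of the scanner output (NCBI37). The Timp1 probe lay on chromosome X at 20451802 to 20451861 on the plus strand, the Timp4 probe on chromosome 6 at 115196120 to 115196179 on the minus strand and the Timp3 probe on chromosome 10 at 85811696 to 85811755 on the plus strand. Timp2 probe 1 lay on chromosome 11 at 118163146 to 118163205 on the minus strand, and Timp2 probe 2 ran over 6778 genomic bases of the same strand, from 118171964 to 118178741, so that it joins exons across an intron. Reck probe 1 lay on chromosome 4 at 43957616 to 43957675 and Reck probe 2 at 43943868 to 43943927, both on the plus strand. The second probes of Timp2 and Reck are shown because each reads another stretch of a transcript whose first probe lies further 3′, and each keeps at least 1 forward reading frame free of stop codons over its length.
Timp2 probe 2: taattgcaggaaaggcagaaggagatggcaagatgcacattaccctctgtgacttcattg
Reck probe 2: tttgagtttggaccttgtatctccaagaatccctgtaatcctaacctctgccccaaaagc
In the RefSeq table, Timp1 lies within Syn1, Timp3 within Syn3 and Timp4 within Syn2, the genes of the 3 synapsins, which are proteins of synaptic vesicles.

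Timp1 was the member that differed most from control, and it did so after both long fibers. In the 4 control mice its log2 signal was 0.24, 1.32, -0.13 and 0.39. In LFA mice it was 3.26, 5.63, 3.10 and 4.79, and in NTL mice 5.41, 5.97, 3.52 and 5.30. The 8 long-fiber arrays all lay above every control array, with LFA replicates 1 and 3 and NTL replicate 3 the lowest among them. SFA mice gave 1.5, 0.21, 0.43 and 0.89 and NTS mice 0.32, 0.13, 0.53 and 0.26, and both short-fiber groups overlapped control. The LFA mean of 4.20 ± 1.22 (SD, n = 4) exceeded the control mean of 0.46 ± 0.62 by 3.74 ± 0.55 (SE) on the log2 scale, a 13.4-fold difference. The NTL mean of 5.05 ± 1.06 (SD, n = 4) exceeded control by 4.60 ± 0.55 (SE), or 24.2-fold. SFA differed from control by 0.30 and NTS by -0.14, both less than the SE of 0.55. Ordered by mean, the groups ran NTL, LFA, SFA, control and NTS. Neighbors overlapped in this order except LFA and SFA, whose lowest and highest arrays stood at 3.10 and 1.5.

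**Figure D1:**
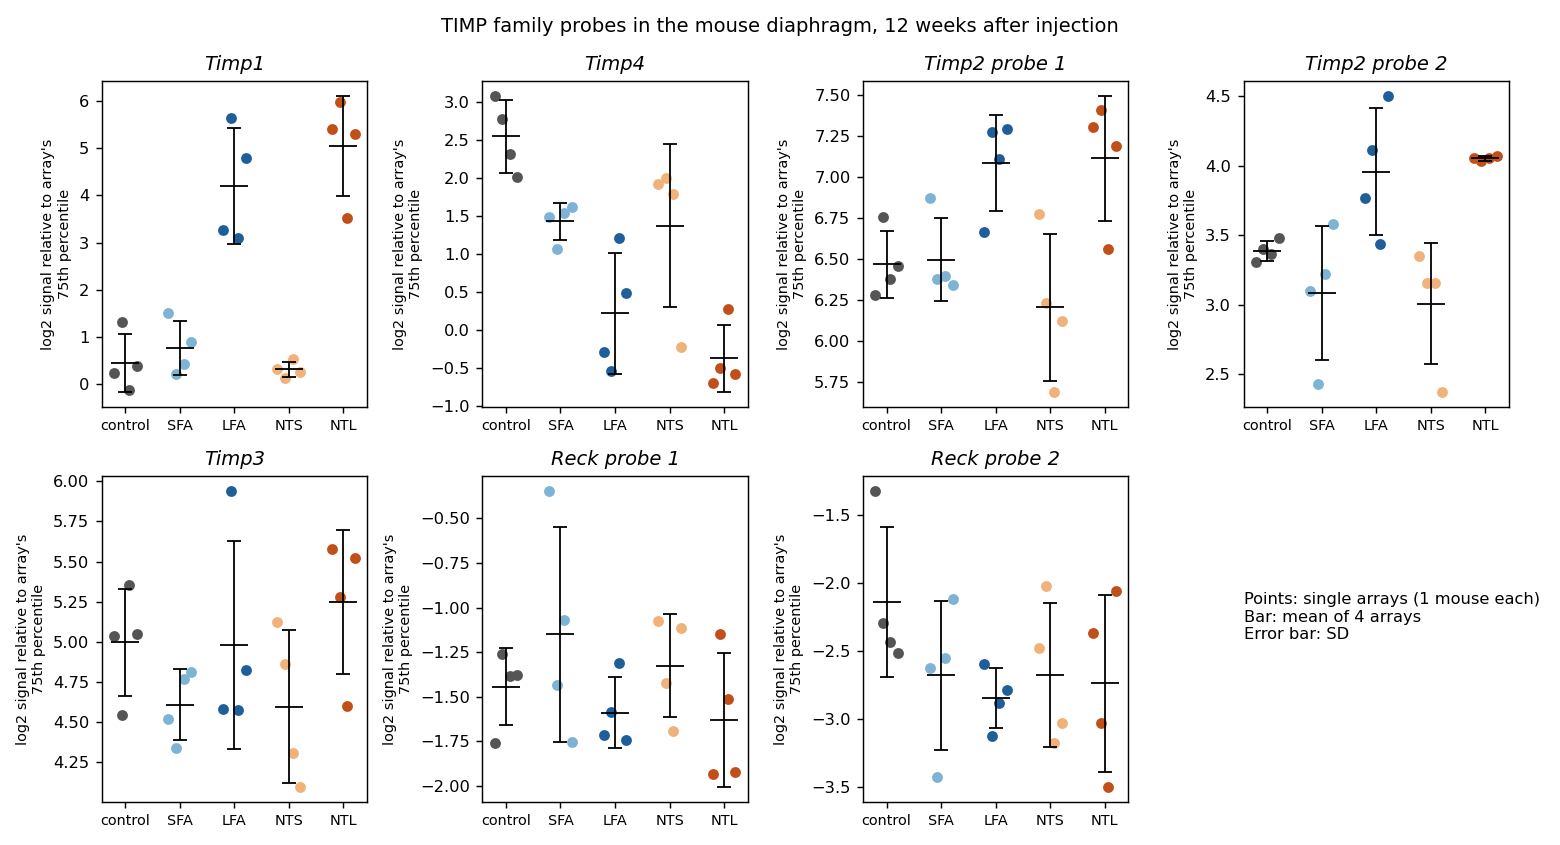
Log2 signal of each of the 7 probes, with the array's 75th percentile subtracted, in the 5 groups. Points are single arrays (1 mouse each), bars are means of 4 arrays and error bars are SD, and the vertical scale differs between panels. All Timp1 points of LFA and NTL lie at 3.10 or higher. All Timp4 points of the 4 fiber groups lie at 2.004 or lower, and the highest of them, in NTS, is nearly level with the lowest control point at 2.010.

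The 3 slides, each scanned in a single run, gave Timp1 differences of the same direction. Within slides, LFA exceeded control by 3.56, 2.48 and 5.76 on slides 1, 2 and 3, and NTL by 4.63 on slide 2 and 5.06 on slide 3, from 1 to 3 arrays a side. With slide as a block the differences were 3.77 for LFA and 4.53 for NTL. When each of the 20 arrays was left out in turn, the LFA difference ran from 3.26 to 4.11 and the NTL difference from 4.29 to 5.11.

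Timp4 was lower than control after all 4 injected materials, and lowest after long fibers. Its control log2 signals were 3.08, 2.78, 2.32 and 2.01. LFA mice gave -0.29, -0.54, 1.21 and 0.49, and NTL mice -0.70, -0.50, 0.27 and -0.58. SFA mice gave 1.49, 1.07, 1.54 and 1.62, and NTS mice 1.92, 2.0, 1.79 and -0.23. Each of the 16 fiber arrays thus lay below the lowest control array. For NTS replicate 2 this held only barely, at 2.004 against 2.010 in control replicate 4. NTS replicate 4 stood far below the other NTS arrays. The LFA mean of 0.22 ± 0.80 (SD, n = 4) was below the control mean of 2.55 ± 0.48, a difference of -2.33 ± 0.46 (SE) or 5.02-fold. The NTL mean of -0.38 ± 0.44 (SD, n = 4) differed from control by -2.92 ± 0.46 (SE), or 7.59-fold. The SFA difference was -1.12 ± 0.46 and the NTS difference -1.17 ± 0.46 (SE, n = 4), which are 2.17- and 2.26-fold. Without NTS replicate 4 the NTS difference was -0.64. The order of means was control, SFA, NTS, LFA and NTL, and each group overlapped its neighbor except control and SFA.

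Within slides, Timp4 in LFA differed from control by -1.16, -3.22 and -2.86 on slides 1, 2 and 3, and in NTL by -3.63 and -2.59 on slides 2 and 3. SFA differed by -1.65 and -0.74 on slides 2 and 3, and NTS by -1.23 and -0.96 on slides 1 and 2. Leaving out single arrays moved the LFA difference between -2.66 and -2.08 and the NTL difference between -3.14 and -2.75.

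Timp2 was moderately higher after long fibers at both of its probes. Probe 1 read 6.28, 6.75, 6.38 and 6.45 in control, 6.67, 7.27, 7.11 and 7.29 in LFA and 7.30, 7.41, 6.56 and 7.18 in NTL. In each long-fiber group 3 of 4 arrays lay above all controls, with LFA replicate 1 and NTL replicate 3 the exceptions. The difference was 0.62 ± 0.26 for LFA and 0.65 ± 0.26 for NTL (SE, n = 4), or 1.53- and 1.56-fold. Probe 2 read 3.30, 3.40, 3.37 and 3.48 in control, 3.77, 4.11, 3.44 and 4.50 in LFA and 4.05, 4.03, 4.06 and 4.07 in NTL. At this probe the NTL arrays lay above all controls, and 3 of 4 LFA arrays did. Its differences were 0.57 ± 0.27 for LFA and 0.67 ± 0.27 for NTL (SE, n = 4). After short fibers the differences ran from -0.38 to 0.03 over both probes, with arrays on either side of the controls. The size of the long-fiber difference depended on the scaling, since quantile normalization gave 0.98 for LFA and 1.15 for NTL at probe 1.

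Timp3 differed from control by less than the spread between mice in the long-fiber groups. Its arrays ran from 4.55 to 5.35 in control, 4.58 to 5.94 in LFA, 4.60 to 5.58 in NTL, 4.34 to 4.81 in SFA and 4.09 to 5.12 in NTS, and all groups overlapped control. The differences were -0.02 for LFA, 0.25 for NTL, -0.39 for SFA and -0.40 for NTS, each with an SE of 0.33 (n = 4). The sign in LFA turned with the scaling, to 0.05 with the normexp background correction and 0.21 with quantile normalization, and the NTL difference was 0.65 with quantile normalization and -0.01 with slide as a block.

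The 2 Reck probes did not give the same picture. Probe 1 ran from -1.76 to -1.26 in control, -1.75 to -1.31 in LFA, -1.94 to -1.15 in NTL, -1.75 to -0.35 in SFA and -1.69 to -1.07 in NTS. Its differences from control were -0.14, -0.19, 0.29 and 0.12 in the order LFA, NTL, SFA and NTS, with an SE of 0.28 (n = 4). Probe 2 read -1.32, -2.29, -2.43 and -2.51 in control and -2.59, -3.12, -2.88 and -2.78 in LFA, so all 4 LFA arrays lay below the controls, of which replicate 1 stood apart as the highest. Its LFA difference was -0.71 ± 0.37 (SE, n = 4). In NTL, SFA and NTS the differences at probe 2 were -0.60, -0.54 and -0.54, and arrays of each group overlapped control. Without control replicate 1 the differences at probe 2 were -0.43 in LFA, -0.32 in NTL, -0.27 in SFA and -0.26 in NTS. For SFA and NTS the 2 probes therefore differed in sign.

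**Figure D2:**
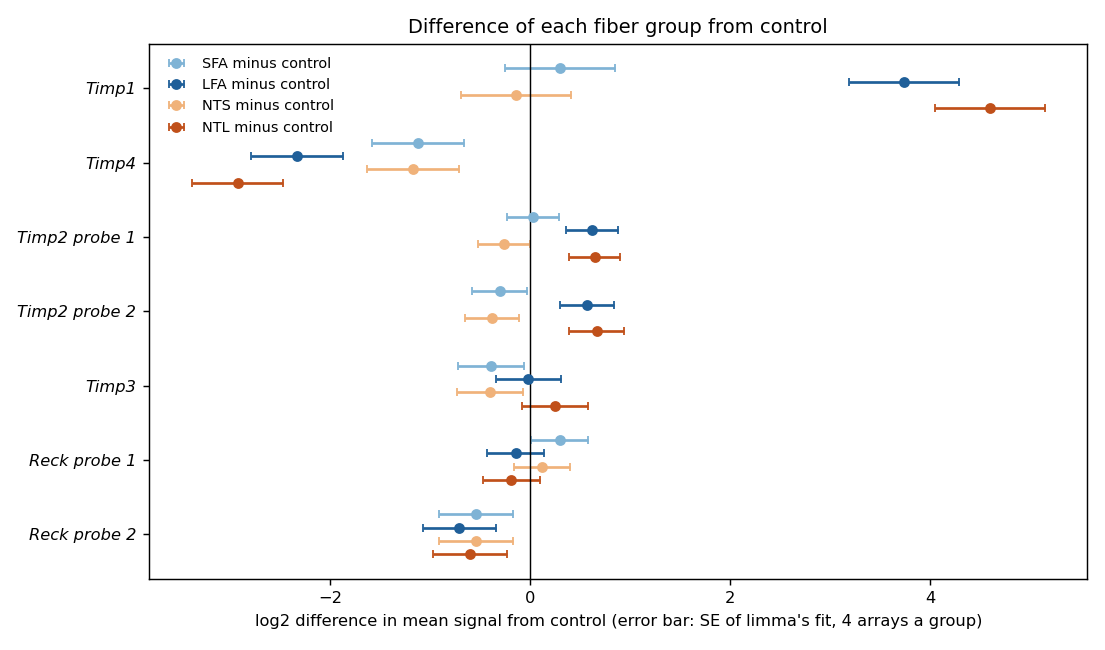
Log2 difference of each fiber group from control for the 7 probes, with the SE of limma's fit as the error bar (4 arrays a group). Timp1 lies at 3.74 and 4.60 for LFA and NTL, Timp4 lies between -2.92 and -1.12 in the 4 fiber groups, and the remaining probes lie between -0.71 and 0.67.

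Counted by the call rule, 2 of 7 probes met it in LFA against control and 2 of 7 in NTL against control, Timp1 higher and Timp4 lower in both. Of all 36931 probes tested, 3.94% were called in LFA (2.22% higher and 1.72% lower) and 6.81% in NTL (3.63% higher and 3.18% lower). Timp1 and Timp4 met the rule in all 20 fits that left out 1 array, in both comparisons. None of the 7 met it in SFA or NTS against control, where limma called 0% of all probes tested. At an unadjusted p under 0.05 there were 843 probes in SFA and 1289 in NTS. All 4 LFA arrays exceeded all controls at 1 member probe and fell short of all controls at 2, beside 4.61% and 11.6% of all probes. For NTL the counts were 2 and 1, beside 6.35% and 13.8%. Timp4 was the single member below all controls in SFA and, only barely, in NTS, as were 0.881% and 0.867% of all probes. Since the same contrasts led to the choice of the family, nothing is read from these counts, and the 4 comparisons share the control arrays.

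The tested probes were lower as a whole after long fibers, with a median difference of -0.28 for LFA and -0.25 for NTL, against -0.10 for SFA and -0.06 for NTS. Under quantile normalization the medians were -0.08 for LFA and -0.09 for NTL. Relative to the median probe, Timp1 differed by 4.02 in LFA and 4.85 in NTL and Timp4 by -2.05 and -2.67. On that scale Timp2 probe 1 differed by 0.89 and 0.90, Timp3 by 0.26 and 0.50, Reck probe 1 by 0.13 and 0.07 and Reck probe 2 by -0.43 and -0.34.

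Long and short forms of each material were given at matched dose and time. Both amosite samples came from the same batch, but the short one was ground in a ball mill and then sedimented in water. Length and this preparation therefore cannot be told apart between LFA and SFA. The short nanotubes were a commercial product and the long ones were made in a university laboratory. Length and source therefore cannot be told apart between NTL and NTS. For amosite, Timp1 was 3.44 ± 0.55 (SE, n = 4) higher in LFA than in SFA on the log2 scale, or 10.9-fold, and all LFA arrays exceeded all SFA arrays, as at 3.16% of all probes. It was the single family probe of 7 that met the call rule, beside 1.16% of all probes called (1.03% higher and 0.133% lower). With only the LFA and SFA arrays in the fit, 0 of the 7 met it. Timp4 was 1.21 lower in LFA than in SFA with an SE of 0.46, and 3 of 4 LFA arrays lay below all SFA arrays. Timp2 was higher in LFA by 0.59 at probe 1 and 0.87 at probe 2, Timp3 by 0.37, and the Reck probes differed by -0.44 and -0.17. For nanotubes, 3 of 7 probes met the rule between NTL and NTS, beside 7.61% of all probes (4.89% higher and 2.71% lower). Timp1 was 4.74 ± 0.55 (SE, n = 4) higher in NTL than in NTS, or 26.7-fold, with every NTL array above every NTS array, as at 7.61% of all probes. Timp4 differed by -1.75 ± 0.46 (SE, n = 4), or 3.36-fold, with NTS replicate 4 among the NTL arrays. Timp2 probe 2 was 1.05 ± 0.27 (SE, n = 4) higher, and probe 1 was 0.91 higher without meeting the rule. The Timp4 call was lost in 6 of the 20 fits that left out 1 array, the Timp2 probe 2 call in 4, and both with slide as a block. The arrays whose loss ended both calls were NTL replicates 1, 2 and 4. NTS replicates 1, 2 and 3 did so for Timp4 alone, and NTS replicate 4 for Timp2 probe 2 alone. As with the comparisons with control, nothing is read from calls of the members here.

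LFA and NTL, whose doses differed, stood side by side at 4.20 and 5.05 for Timp1 and at 0.22 and -0.38 for Timp4, with overlapping arrays for both genes. None of the 7 probes met the rule between them, as limma called 0% of all probes, with 572 at an unadjusted p under 0.05.

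Several marker levels moved with the same groups. All 10 skeletal muscle markers were well above background in every control array, as the tissue label requires. The mean of 9 macrophage markers lay 1.17 to 2.15 above the control mean in LFA and 1.89 to 2.12 above it in NTL, with 7 of 9 called higher in each. Itgam went the other way, at -0.80 in LFA and -0.60 in NTL without a call. In the short-fiber groups the macrophage mean ran from -0.18 to 0.51. The mean of 10 fibroblast and matrix markers lay between 0.28 and 1.40 in LFA and between 0.66 and 1.68 in NTL, with 2 and 5 of 10 called higher. For 10 skeletal muscle markers the mean lay between -1.27 and -0.64 in LFA and between -1.40 and -1.25 in NTL, with 3 and 4 of 10 called lower. For 10 adipocyte markers it lay between -1.34 and -0.32 in LFA and between -1.32 and -0.83 in NTL, with 1 and 5 of 10 called lower. In SFA and NTS none of these 4 lists had a called gene by limma. At an unadjusted p under 0.05 the counts in SFA were 0 macrophage, 1 fibroblast, 0 muscle and 0 adipocyte genes, and in NTS 0, 0, 1 and 1. The muscle level was nevertheless lower in SFA, from -0.53 to -0.18 with a mean of -0.40, where the lowest control stood at -0.16. In NTS it ran from -0.80 to 0.37 with a mean of -0.25. Adipocyte means were -0.24 in SFA and -0.32 in NTS, and fibroblast means 0.34 and -0.17. Within LFA, replicates 2 and 4 had the highest Timp1 (5.63 and 4.79), macrophage level (2.15 and 2.11) and fibroblast level (1.40 and 1.09). Within NTL, replicate 3 had the lowest Timp1 (3.52) and fibroblast level (0.66) and the highest macrophage level (2.12). The part of these cell types in the Timp1 and Timp4 differences was not tested.

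**Figure D3:**
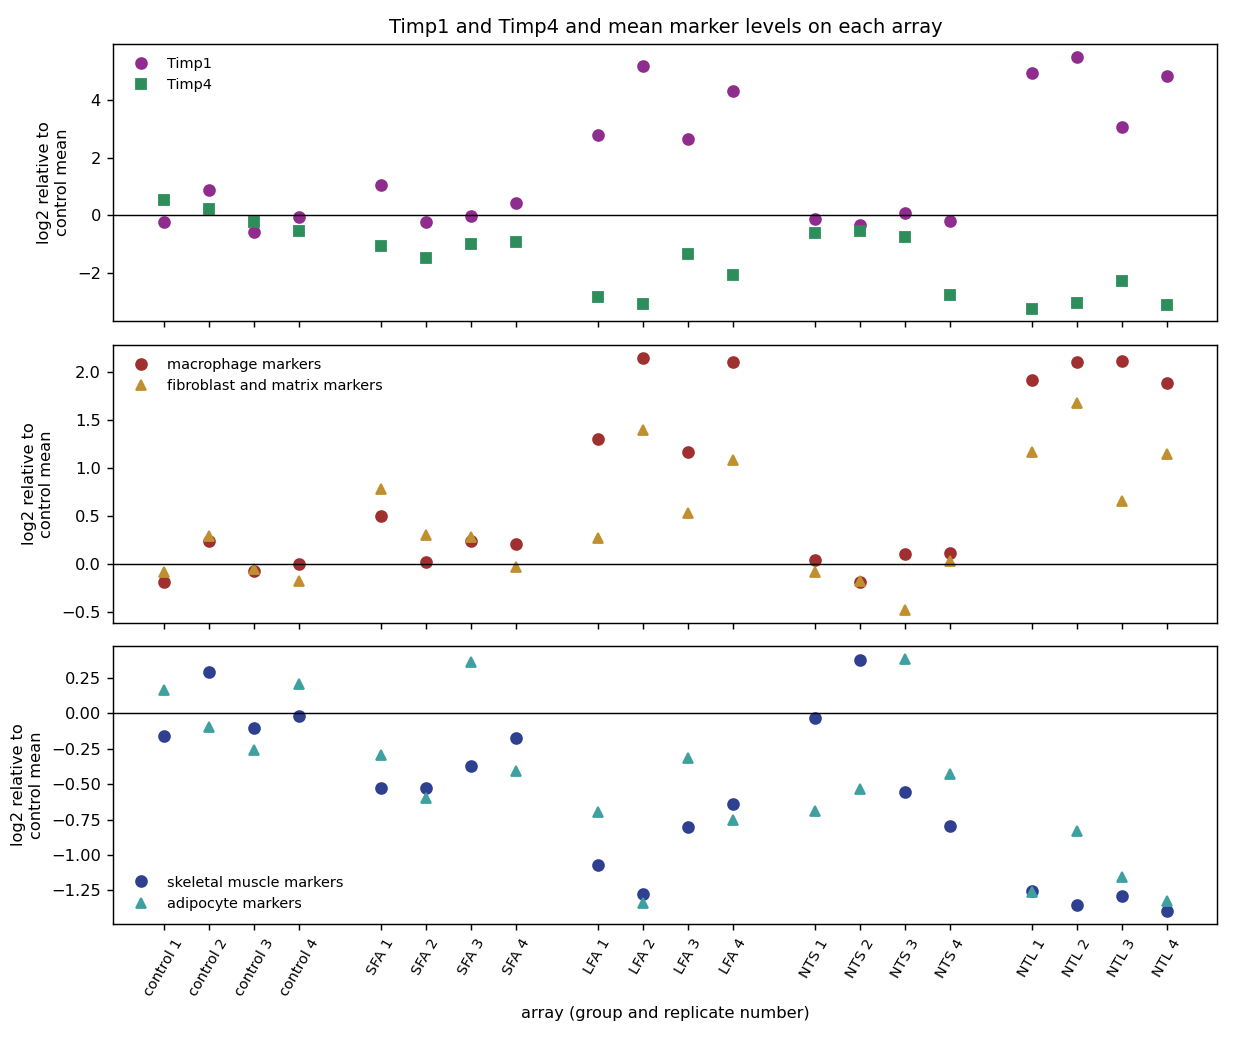
Timp1 and Timp4 (top), macrophage and fibroblast markers (middle) and skeletal muscle and adipocyte markers (bottom) on each of the 20 arrays, as log2 differences from the control mean. Marker points are means over the tested genes of a list, and the vertical scale differs between panels. Macrophage points of LFA and NTL lie at 1.17 or higher and muscle points of both groups at -0.64 or lower, the short-fiber arrays all lie below 1.17 for macrophage markers, and for muscle markers NTS replicate 4, at -0.80, lies within the long-fiber range.

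Liver markers, genes of hepatocyte-secreted proteins, varied between single arrays of every group, from -1.88 to 4.10 in control, -3.28 to 6.81 in SFA, -2.22 to 7.36 in LFA, -1.99 to 8.32 in NTS and -0.20 to 4.24 in NTL relative to the control mean. LFA replicates 1 and 3, SFA replicate 2 and NTS replicates 3 and 4 stood at 6.81 or above, and the next array at 4.42. The LFA arrays with the lowest Timp1 were those 2. Without these 5 arrays, a selection made after seeing the data that leaves 2 LFA mice, Timp1 differed from control by 4.76 ± 0.59 in LFA and 4.60 ± 0.48 in NTL, and Timp4 by -2.57 ± 0.37 in LFA, -2.92 ± 0.31 in NTL, -0.998 ± 0.33 in SFA and -0.58 ± 0.37 in NTS (SE). The NTS replicates that remained were 1 and 2, with Timp4 signals of 1.92 and 2.0.

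The synapsin genes that surround 3 of the members were read by 5 probes. Syn1, around Timp1, rose by 1.46 ± 0.41 (SE, n = 4) in LFA (limma adjusted p = 0.0495) and by 1.63 ± 0.41 in NTL (limma adjusted p = 0.0207), with no overlap with control in either. Its signal was weak, from -3.59 to -2.77 in control. Syn1 differed from control by 0.65 in SFA and 0.34 in NTS without a call. Neither long-minus-short difference was called, at 0.81 for LFA against SFA (limma adjusted p = 0.425) and 1.29 for NTL against NTS (limma adjusted p = 0.0563). Neither Syn2, around Timp4, nor Syn3, around Timp3, was called at any probe, and the Syn2 differences in LFA were -0.28 and -0.35 (limma adjusted p = 0.583 and 0.582) and in NTL 0.00 and 0.08 (limma adjusted p = 0.995 and 0.932).

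The enzymes and factors around the TIMPs were read through 6 lists of 95 genes, of which 81 were tested. Here and below, a gene is said to rise or fall only when it was called. In LFA 11 of 81 rose and none fell, and in NTL 15 rose and 1 fell, beside 3.94% and 6.81% of all probes called. The same shares stand beside the counts of the single lists below. The median difference of the 81 genes was 0.48 in LFA and 0.67 in NTL, against the medians of -0.28 and -0.25 over all probes. These figures are not like for like, since each listed gene is represented by its brightest probe and the rest by every tested probe. The lists were also chosen with earlier results of these data known, so nothing is read from the excess over all probes. In SFA and NTS 0 of 81 were called by limma, although an unadjusted p under 0.05 was reached by 4 genes and 8 genes. The methods' analysis of variance with a 2-fold difference gave 3 and 2. Its p covers the groups together, so such a gene can pass through its long-fiber differences. Those counts are therefore not tests of SFA or NTS against control. Leaving out control replicate 3, LFA replicate 2 or LFA replicate 4 lowered the LFA count to 7 each time, and fitting only the LFA and control arrays lowered it to 4.

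Of 16 matrix metalloproteinases, the direct targets of the TIMPs, 2 rose in LFA and 3 in NTL. Mmp3, stromelysin-1, had means of -0.03 ± 1.25 in control, 2.31 ± 0.83 in LFA and 2.99 ± 0.55 in NTL (SD, n = 4). It rose by 2.34 ± 0.54 (SE) in LFA (limma adjusted p = 0.0237), where 2 of 4 arrays exceeded all controls, and by 3.03 ± 0.54 in NTL (limma adjusted p = 0.0025). Mmp27 rose by 1.42 ± 0.35 in LFA (limma adjusted p = 0.0321) and 1.54 ± 0.35 in NTL (limma adjusted p = 0.0125). It was well above background on 1 of 4 control arrays, 0 SFA arrays and 3 NTS arrays. Its NTS difference from control was 1.09 ± 0.35 without a call. NTL exceeded NTS by only 0.45, also without a call (limma adjusted p = 0.444). Mmp12, the macrophage elastase, was the third to rise in NTL, by 5.02 ± 1.18 (limma adjusted p = 0.0145), and its LFA difference of 3.48 was not called (limma adjusted p = 0.091). Mmp2 and Mmp14, which form the surface complex with TIMP2, differed in NTL by 1.10 ± 0.54 and 1.38 ± 0.93 without a call (limma adjusted p = 0.225 and 0.40). These and the other genes outside the naming rule, Mmp12, Adamts7, Spock2, Tnf, Runx1, Cd63, Mmp2 and Mmp14, were picked after their values were seen.

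Of 8 ADAM proteinases, which shed proteins from the cell surface, 1 rose in each long-fiber group. It was Adam8, a sheddase of myeloid cells, which rose by 2.11 ± 0.37 in LFA (limma adjusted p = 0.0043) and 2.50 ± 0.37 in NTL (limma adjusted p = 0.0005). Of 19 ADAMTS proteinases, secreted enzymes that include targets of TIMP3, 3 rose in LFA and 4 in NTL. Adamts15 rose by 2.25 ± 0.37 and 2.43 ± 0.37 (limma adjusted p = 0.0028 and 0.0007), Adamts4, an aggrecanase, by 1.89 ± 0.32 and 2.14 ± 0.32 (limma adjusted p = 0.0036 and 0.0006), and Adamts14, a procollagen N-proteinase, by 1.22 ± 0.32 and 1.39 ± 0.32 (limma adjusted p = 0.0408 and 0.0142) in LFA and NTL. Adamts7 rose in NTL by 1.21 (limma adjusted p = 0.0342). All 4 SFA arrays also lay above all controls for Adamts4 and Adamts15, as at 0.56% of all probes, with differences of 1.24 and 0.73 that were not called (limma adjusted p = 0.999 for both).

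Of 11 binding partners and receptors, 1 rose in each group, beside 3.94% of all probes called in LFA and 6.81% in NTL. It was Cd44, a hyaluronan receptor that docks metalloproteinases at the cell surface, with differences of 1.73 ± 0.32 in LFA and 1.81 ± 0.32 in NTL (limma adjusted p = 0.0067 and 0.0023). Cd63, a tetraspanin that binds TIMP1, differed by 0.15 and 0.31 without a call (limma adjusted p = 0.805 and 0.626). Of 16 other inhibitors and members of the plasminogen cascade, 2 rose in both groups and 1 fell in NTL. Serpina3n, a serine proteinase inhibitor, rose by 2.87 ± 0.75 and 3.62 ± 0.75 (limma adjusted p = 0.038 and 0.0066), and Plaur, the urokinase receptor, by 1.43 ± 0.26 and 1.39 ± 0.26 (limma adjusted p = 0.0056 and 0.0032) in LFA and NTL. Serpina3n was also high on NTS replicates 3 and 4, at 3.38 and 2.94 on the log2 scale relative to the control mean, where the liver marker means were 8.32 and 8.23. Its NTS difference of 1.78 ± 0.75 was not called (limma adjusted p = 1.0), nor was NTL against NTS (limma adjusted p = 0.133). LFA replicates 2 and 4 and the NTL arrays, all with lower liver marker means, stood at 2.35 or higher, against 1.38 for the highest control. The part of liver RNA in the Serpina3n differences was not tested. Spock2, a testican of the matrix, fell by 1.78 in NTL (limma adjusted p = 0.0049).

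Of 11 cytokines and factors known to induce Timp1, 2 rose in LFA and 4 in NTL. Il6 rose by 3.70 ± 0.50 in LFA and 4.06 ± 0.50 in NTL (limma adjusted p = 0.0006 and 0.0001), although it was well above background on only 1 of 4 control arrays. Il1b rose by 3.74 ± 0.72 and 3.38 ± 0.72 (limma adjusted p = 0.0083 and 0.008). Tnf and the transcription factor Runx1 rose in NTL by 1.49 and 1.42 (limma adjusted p = 0.0444 and 0.0195), and their LFA differences were 1.04 and 1.09 without a call. Between LFA and NTL neither was called, with differences of -0.45 and -0.33. Il6 and Il1b are products of activated macrophages among other cells. The macrophage marker means given above moved in the same groups, but the part of these cells in the Il6 and Il1b differences was not tested. With slide as a block, Mmp27, Adamts14 and Serpina3n lost the LFA call and Adamts14 the NTL call. Mmp3 in LFA lost its call in 5 of the 20 fits that left out 1 array, Mmp27 in 6, Adamts14 in 9 and Serpina3n in 7, and among the arrays behind these losses were LFA replicates 2 and 4 for each of the 4 genes.

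**Figure D4:**
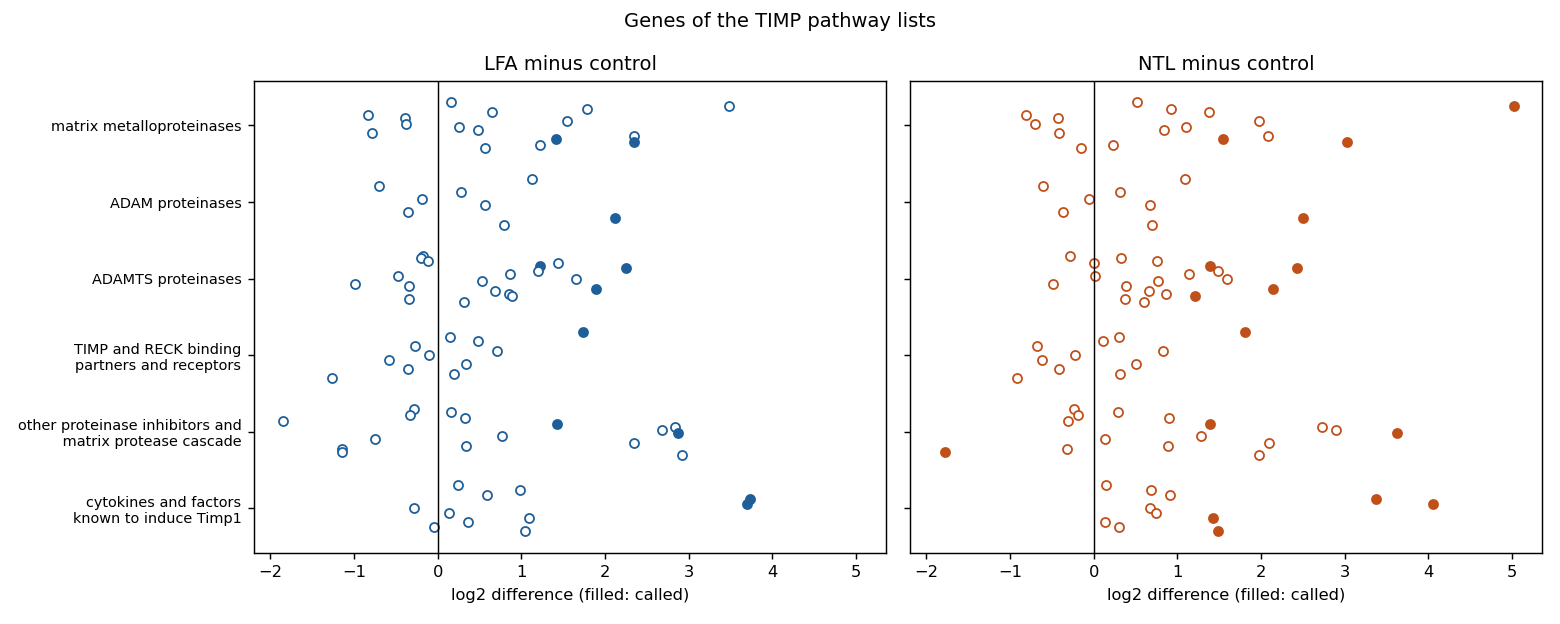
Log2 difference from control in LFA (left) and NTL (right) of the 81 tested genes around the TIMPs, by list. Each circle is 1 gene and filled circles met the call rule. The filled circles lie to the right of 0, 11 in LFA and 15 in NTL, except Spock2 in NTL at -1.78.

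The genes whose profile over the 20 arrays came closest to Timp1, by the root mean square difference of log2 values after each was centered on its own mean, were E030010N08Rik (Crocc2 in RefSeq, 0.55), Trem2 (0.57), Nfasc (0.63), Ccl8 (0.63) and C430002N11Rik (0.64), out of 17367 genes compared. The SD of Timp1 over the same arrays was 2.22. Trem2 is a receptor of macrophages and Ccl8 a chemokine. Differences from control were 3.54 and 4.34 for Trem2, 4.55 and 5.09 for Ccl8 and 2.51 and 3.22 for Nfasc in LFA and NTL. E030010N08Rik and C430002N11Rik were not well above background on any control, SFA or NTS array, so their profiles there are set by the floor of the measurement. Closest to Timp4, whose SD was 1.21, were Ppp1r1a (0.50), Cdhr3 (0.52), Prss55 (0.52), Accn2 (Asic1 in RefSeq, 0.53) and Slc1a1 (0.55). Ppp1r1a, an inhibitor of protein phosphatase 1, differed from control by -1.68 in LFA, -2.48 in NTL, -0.51 in SFA and -0.62 in NTS. Cdhr3, Prss55, Accn2 and Slc1a1 differed by -1.89, -1.82, -1.53 and -1.62 in LFA and by -2.23, -2.26, -2.28 and -2.03 in NTL. Likeness here is a description over arrays that fall into the same groups.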

How the data were processed

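Total RNA of the frozen diaphragm was labeled with a single dye, hybridized to 60-mer whole mouse genome arrays and scanned by the authors, who deposited the output of Agilent Feature Extraction 10.7.3.1 for each array. In these deposited files each spot carries an intensity, already corrected for background by the scanner software. A deposited second table holds log2 values that the authors normalized in GeneSpring, in 1 column per group. It matched the scanner group means relative to each probe's median (r between 0.998 and 0.999 over 36931 probes, slope near 1) and served only as an alternative, as the authors' means.

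Between 92 and 204 spots of an array were marked as outliers and set aside, spots of a probe were averaged on the log2 scale, and the 75th percentile of each array over noncontrol spots (294 to 996) was subtracted. No spot was saturated. On each array 53.0% to 68.1% of spots were well above background, and correlations between pairs of arrays lay between 0.865 and 0.986, so none was a copy of another. The number of arrays limits the precision. Probes well above background on at least 4 arrays were tested with limma 3.58.1 in R 4.3.3, with 1 mean per group over all 20 arrays. Slide and scan coincide on 3 slides, and every group lies on more than 1 slide. NTL and NTS share only slide 2, with 1 NTL and 2 NTS arrays, so most of that comparison runs between slides. Within slide 2, NTL differed from NTS by 5.19 for Timp1 and by -2.66 for Timp4.

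The members, the gene lists and the named genes were chosen with earlier results of these data known. Members, their synapsin hosts, the genes most like them and, from each list, up to 3 genes called in both long-fiber groups were named, and others are marked as picked after their values were seen. A gene with several probes is represented by its brightest. The 10 marker lists also comprised mesothelial, endothelial, T cell, B and plasma cell and granulocyte genes. Their means relative to control in LFA and NTL were 0.27 and -0.42 for mesothelial, -0.44 and -0.22 for endothelial, 0.59 and 0.94 for T cell, 0.58 and 0.77 for B and plasma cell and 0.78 and 0.20 for granulocyte genes. Upstream sequences and nesting of genes came from RefSeq tables (GRCm38.p6), and sequences were handled with Python 3.11.15. The steps were tested on simulated data.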

Additional observations from a re-analysis of the deposited data

Results flagged for a closer look

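In a group of 4 arrays, a value was singled out when its gap to the nearest of the others, divided by the range of the group, passed Dixon's 95% critical value. Of 165 sets of 4 values, 6 did (3.64%), and chance gives about 1 in 20. Timp4 in NTS replicate 4 was at -0.23 while the other NTS arrays lay between 1.79 and 2.0. On the same array the skeletal muscle marker mean was -0.80, the adipocyte mean -0.43 and the liver marker mean 8.23 relative to control. NTS replicate 3 had a Timp4 signal of 1.79. Its muscle marker mean was -0.55, its adipocyte mean 0.38 and its liver mean 8.32. The cause of the low Timp4 signal on NTS replicate 4 was not tested. Timp2 probe 1 in SFA replicate 1 was at 6.87, against 6.34 to 6.40. Il1b in LFA replicate 4 was at 2.07, against -0.39 to -0.07. Adamts14 was at -1.37 in control replicate 1, against -0.70 to -0.57, and at -1.33 in NTS replicate 3, against -0.81 to -0.72. The mesothelial marker mean of LFA replicate 2 was -0.77 relative to control, against 0.58 to 0.64 in the other LFA arrays. The difference between the long-minus-short contrasts of asbestos and nanotubes was not called by limma for any of 23 values examined. Of these, 3 had an unadjusted p under 0.05. Nor was it called for any probe on the array, with 1274 at an unadjusted p under 0.05.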

How the results depend on the processing

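No called value changed sign under the alternatives, although some uncalled differences of Timp1 in NTS and of Timp2, Timp3 and Reck did. Of the values recomputed, 905 stayed close to the reported one (within 1 SD between mice, or 1.5 times for a count) and 18 moved further. Most of these values came from the fits that left out 1 array. Leaving out 1 of 4 arrays can hardly move a difference by 1 SD, so nothing is read from this tally. The family probes called against control were 2 in LFA under every alternative that gives this count, and 2 in NTL except for 3 under quantile normalization. Fitting only the groups compared left 4 of the 11 called genes around the TIMPs in LFA, 0 family probes instead of 1 between LFA and SFA and 1 instead of 3 between NTL and NTS, and slide as a block also left 1 instead of 3 there. Quantile normalization moved Timp2 to 0.98 in LFA and 1.15 in NTL and Timp3 to 0.65 in NTL. Averaging the probes of a gene moved Reck to -0.42 in LFA and to -0.21 in NTS, where probe 1 alone gave 0.12. The methods' analysis of variance gave 3 genes around the TIMPs in SFA and 2 in NTS instead of 0. Its p covers the groups together and does not test SFA or NTS against control. Leaving out the arrays with high liver markers, chosen after seeing the data, moved Timp1 in LFA to 4.76. Leaving out single arrays gave 7 to 16 called genes around the TIMPs in LFA and 1 to 4 family probes between NTL and NTS. The low of 7 was reached without control replicate 3, LFA replicate 2 or LFA replicate 4, and the low of 1 without NTL replicate 1, 2 or 4. The cause of these shifts was not tested. The authors' normalized table holds 1 value per group and gives no counts. Replicate numbers did not pair the samples: over 40 pairs of arrays that share a number, correlations of deviations from group means ran from -0.68 to 0.69 (median -0.09), and 4 of 20 arrays matched their own number best. With a replicate block, the genes around the TIMPs called were 10 in LFA and 14 in NTL, and the family counts were 2 in LFA, 2 in NTL, 1 between LFA and SFA and 3 between NTL and NTS. The 20 arrays limit the precision.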
